A study of Mus musculus with 12 samples.

Results

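The cell division machinery of blood stem cells was followed here through 74 captured promoters of 71 genes, out of 3781 promoters of 3374 genes in the deposited contact table. Members were taken by gene symbol, from names that start like those of cyclins, cyclin-dependent kinases and their inhibitors, E2F factors, replication proteins, mitotic kinases, kinetochore proteins, condensins and kinesins, with Cdkn1c left out. They held 1845 of the 89545 listed contacts. The name rule itself used neither expression nor contacts, although a promoter had to have a called contact to be in the table. The name pattern also took 13 genes gathered below as other names, several of which are not cell cycle genes, such as Cdc42, a small GTPase of the cytoskeleton, and Cdkal1, a tRNA-modifying enzyme.

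The study compared promoter contacts of mouse fetal liver haematopoietic stem cells (HSCs) at embryonic day 14.5 with those of adult bone marrow HSCs from mice aged 6 to 8 weeks, both of strain B6129SF1 and both sorted as Lin-Sca1+cKit+CD135- cells. Promoter Capture-C cross-links chromatin, cuts it with DpnII, joins fragments that lay close together and pulls out the chosen promoters with probes, so that sequencing shows which distant fragments they touched. Each population had 4 libraries, 2 in each of 2 batches, and the labels do not say whether these came from separate animals. The table gives only 1 pooled value per population and batch, so the values below have no spread between libraries beside them and no test was possible. The 4 HPC7 cell line libraries, wild-type and TCF3KO, were not analysed here.

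Cells enter DNA replication when cyclin D with Cdk4 or Cdk6, and then cyclin E, release E2F factors from the retinoblastoma proteins. The origin recognition complex, Cdc6 and the MCM helicase prepare replication origins, and cyclin B, Aurora and Polo-like kinases, kinesins and the kinetochore carry the cell through mitosis. HSCs of the fetal liver are known to divide actively, whereas most adult bone marrow HSCs are quiescent. Many promoters of mitotic genes are known to carry CCAAT boxes and the cell cycle genes homology region (CHR), and many replication promoters carry E2F sites.

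Promoter sequence, which the choice of members did not use, is shown for 6 genes because they span the expression differences described below and the motif patterns found. Cdc20 and Ccnb2 hold CHR and CCAAT words, Ncapd2 holds both and an E2F word, and Cdc6 holds an E2F word alone. Ccne1, the cyclin with the largest fetal excess, and Cdkn2c, an inhibitor higher in adult cells, hold none of the words. Each line is the 250 bases before the gene's start in RefSeq on GRCm38.p6, read 5′ to 3′ on the gene's strand, with motif matches in capitals.
Cdc20: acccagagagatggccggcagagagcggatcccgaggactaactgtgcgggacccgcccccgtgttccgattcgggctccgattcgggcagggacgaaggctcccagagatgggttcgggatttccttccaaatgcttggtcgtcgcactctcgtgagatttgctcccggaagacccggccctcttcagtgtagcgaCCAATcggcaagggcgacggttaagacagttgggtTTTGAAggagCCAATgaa
Ccnb2: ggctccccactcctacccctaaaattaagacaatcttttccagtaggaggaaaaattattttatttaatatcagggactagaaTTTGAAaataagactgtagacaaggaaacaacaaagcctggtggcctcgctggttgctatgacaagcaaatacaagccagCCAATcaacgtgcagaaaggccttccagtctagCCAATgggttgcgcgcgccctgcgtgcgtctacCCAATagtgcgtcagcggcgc
Ncapd2: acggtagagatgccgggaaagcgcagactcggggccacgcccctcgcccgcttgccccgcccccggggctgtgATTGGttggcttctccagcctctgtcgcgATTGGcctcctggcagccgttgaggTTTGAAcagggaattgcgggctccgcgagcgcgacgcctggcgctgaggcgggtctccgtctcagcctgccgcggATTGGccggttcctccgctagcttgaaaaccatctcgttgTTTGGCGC
Cdc6: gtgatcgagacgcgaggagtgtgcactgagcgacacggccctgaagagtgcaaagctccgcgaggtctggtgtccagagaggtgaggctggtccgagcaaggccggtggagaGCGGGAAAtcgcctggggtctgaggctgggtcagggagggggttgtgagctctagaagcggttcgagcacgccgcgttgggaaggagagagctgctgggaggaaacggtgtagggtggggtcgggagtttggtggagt
Ccne1: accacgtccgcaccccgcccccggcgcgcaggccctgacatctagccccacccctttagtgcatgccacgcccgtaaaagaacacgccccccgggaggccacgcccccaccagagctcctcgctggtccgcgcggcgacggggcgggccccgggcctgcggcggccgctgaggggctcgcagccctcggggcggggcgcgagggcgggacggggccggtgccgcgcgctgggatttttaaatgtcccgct
Cdkn2c: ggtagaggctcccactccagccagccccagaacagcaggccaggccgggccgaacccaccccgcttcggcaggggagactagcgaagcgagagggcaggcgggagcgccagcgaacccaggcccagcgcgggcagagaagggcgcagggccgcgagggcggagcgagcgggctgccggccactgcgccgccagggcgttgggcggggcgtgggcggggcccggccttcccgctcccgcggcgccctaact

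The CHR was searched as TTTGAA, the CCAAT box as CCAAT, and the E2F site as TTTCCCGC, TTTCGCGC, TTTGCCGC or TTTGGCGC, each on both strands. In 1 member window the matches of 2 motifs overlapped. A RefSeq window was found for 58 of the 71 genes, and Spc24, Cdc23, Cdc25c, E2f4, Aurkb, Gins1, Prim2, Cdk19, Kif20a, Cdca2, Ccnd1, Ccna2 and Ccnd2 were not matched. A CCAAT word lay in 29 of the 58 member windows (50.0%, 95% Clopper-Pearson interval 36.6 to 63.4), compared with 34.5% of all 27025 RefSeq genes in the table. An E2F word lay in 6 (10.3%, 3.89 to 21.2), compared with 1.91% of all genes: Cdc6, Cdc25a, Cdca7, Mcm7, Ncapd2 and Orc1. All genes here means every RefSeq gene, captured or not, and the shares among the other captured promoters are not given.

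The share with a CHR word depended on the window. Over the 250 bases it was 10 of 58 (17.2%, 8.59 to 29.4), close to the 16.3% of all genes. Over 300 bases, which add the 50 after the start, it was 19 of 58 (32.8%, 21.0 to 46.3), compared with 18.1%. Among the 16 matched genes whose FPKM was higher in fetal cells by a log2 of at least 1, 3 held a CHR word over the shorter window and 10 over the longer one. The longer window was searched first and the shorter one was chosen after its shares had been seen. A word match describes these letters and shows no binding.

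Most members were expressed more highly in fetal liver HSCs. FPKM (fragments per kilobase of transcript, scaled to the library's reads) was deposited as 1 value per promoter and population, and differences are given as log2(FPKM + 1), fetal minus adult. In the first batch 17 of 25 member promoters were higher in fetal cells, compared with 48.0% of all 1952 promoters of that batch, and the median difference was 0.28, compared with -0.04. In the second batch 43 of 49 were higher in fetal cells, compared with 45.9% of 1829, and the median was 0.78, compared with -0.54. Every promoter of the second batch carries the authors' mark of differential expression, as do 13 of 25 members in the first, compared with 35.5% of all 1952, so that a difference there follows from how the promoters were chosen and only its direction was free.

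A log2 difference of at least 1 towards fetal cells was reached by 3 of 25 first-batch members, compared with 5.07% of all promoters, and by 16 of 49 in the second batch, compared with 11.4%. Towards adult cells it was reached by 2 of 25, compared with 13.3%, and by 0 of 49, compared with 16.1%. The 16 were Ccne1, Ccnb1, Plk1, Aurka, Aurkb, Bub1b, Cdc20, Cenpa, Cdca8, Ncaph, Kif20a, Kif22, Kifc1, Cdc34, Cdca3 and Ccnb1ip1. The 3 were Cdc6, Spc24 and Cdca5. The 2 towards adult cells were Cdkn2c and Cdkn2c_1, promoters of the same gene.

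**Figure D1:**
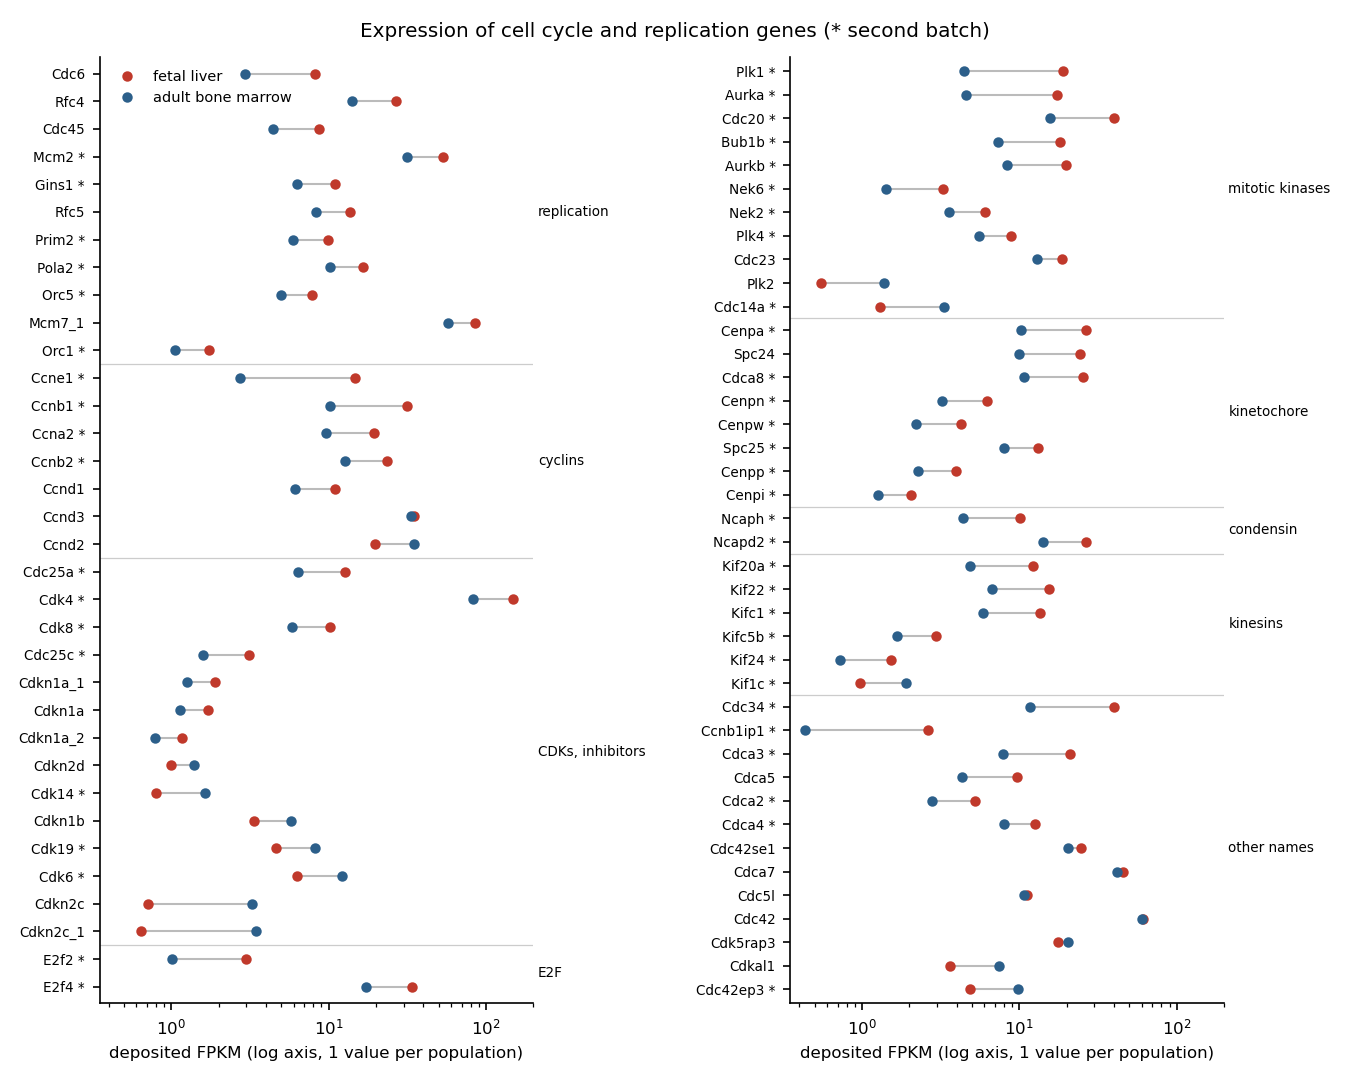
Deposited FPKM of each member promoter on a log axis, fetal liver HSCs in red and adult bone marrow HSCs in blue, ordered within roles by the log2 difference; asterisks mark the second batch. All 11 replication and all 8 kinetochore promoters lay higher in fetal cells, and the kinases and inhibitors split 7 to 7.

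Markers of other blood cells also moved between the pooled values, and they stand beside every expression difference here. Of 19 lineage markers 11 had a captured promoter. In fetal cells 0 of the 11 were under 1 FPKM and in adult cells 7 were, among them the macrophage gene Marco at 7.99 FPKM in fetal and 0.00996 in adult cells. Klf1, an erythroid factor, stood at 24.0 and 2.40 FPKM, and the platelet gene Pf4 at 14.2 and 113. The summed lineage level was 87.2 FPKM in fetal and 168 in adult cells, and none of the 11 was at 0 in either. The adult sum was carried by Pf4 and Itga2b (6.43 and 45.1 FPKM), both of the platelet lineage, and the other 9 were all higher in fetal cells, with sums of 66.6 and 10.3. The 6 captured markers of the HSC gate out of 8 were all above 1 FPKM in both, with sums of 147 and 196. Flt3, which encodes the CD135 that the sort excluded, was at 6.20 and 3.81 FPKM. In the endothelial and stromal list 4 of 5 were captured, with sums of 9.37 and 10.3 FPKM. Within it Cdh5, an endothelial cadherin, was at 2.53 FPKM in fetal and 0.00611 in adult cells, and Col1a2, a collagen gene, at 0.431 and 1.85. Hepatocyte markers were not analysed here. The part of other cells in the members' differences was not tested, and in such pooled values fewer cells of a type and less RNA per cell cannot be told apart.

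All 11 replication promoters had the higher FPKM in fetal cells, by a median log2 difference of 0.65. Cdc6, which loads the helicase onto origins, led with 8.17 FPKM in fetal cells and 2.93 in adult, which is 2.79 times higher. Mcm2, a helicase subunit, was at 53.4 and 31.3 FPKM and Mcm7, through its captured promoter Mcm7_1, at 84.8 and 57.1. The clamp loader subunits Rfc4 (26.7 and 14.1 FPKM) and Rfc5 (13.6 and 8.28) and the helicase activator Cdc45 (8.72 and 4.42) differed in the same direction. Orc1, the largest origin recognition subunit, had the smallest difference of the role, at 1.74 and 1.06 FPKM. The role as a whole was therefore high in fetal cells by moderate amounts, with only Cdc6 past a log2 of 1.

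The cyclins differed by type. Ccne1, cyclin E1, stood at 14.7 FPKM in fetal cells and 2.74 in adult, 5.37 times higher and the largest log2 difference among the members, at 2.07. The mitotic cyclin Ccnb1 was at 31.3 and 10.2 FPKM, Ccna2 at 19.5 and 9.60, and Ccnb2 at 23.6 and 12.8. The D-type cyclins, which respond to growth signals, did not share a direction. Ccnd1 was at 10.9 FPKM in fetal and 6.09 in adult cells, and Ccnd3 at 34.6 and 33.1, a log2 difference of 0.06. Ccnd2 was the exception among the 7 cyclins, at 19.7 FPKM in fetal and 34.7 in adult cells.

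Cyclin-dependent kinases and their inhibitors split by gene, with 7 of 14 promoters higher in each population. Cdk4 had the highest FPKM of any member, 148 in fetal and 82.4 in adult cells, whereas Cdk6, which also binds D-type cyclins, was at 6.30 and 12.2. Cdk19, a kinase of the Mediator complex, was at 4.65 and 8.17 FPKM and its relative Cdk8 at 10.2 and 5.86. The phosphatases that activate the kinases were higher in fetal cells, Cdc25a at 12.7 and 6.36 FPKM and Cdc25c at 3.10 and 1.58.

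Among the inhibitors, Cdkn2c, which encodes p18 and blocks Cdk4 and Cdk6, was the member most biased to adult cells. Its promoter Cdkn2c was given 0.706 FPKM in fetal and 3.26 in adult cells, and its promoter Cdkn2c_1, 1.36 kb away, 0.638 and 3.44, a ratio of 5.40. Both are values of the same gene and do not count as separate evidence. Cdkn1b, which encodes p27, was also higher in adult cells at 3.35 and 5.78 FPKM, and Cdkn2d differed little at 0.992 and 1.40. Cdkn1a, which encodes p21, was low in both, at 1.71 and 1.14 FPKM for its promoter Cdkn1a. E2f2 and E2f4, an activating and a mainly repressing E2F factor, stood at 2.98 and 1.02 FPKM and at 34.1 and 17.2.

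Genes of mitosis held most of the large fetal differences. Of 11 promoters of mitotic kinases, checkpoint and anaphase-promoting complex genes, 9 were higher in fetal cells and 5 passed a log2 of 1. Plk1, the Polo-like kinase needed for mitotic entry, was at 19.0 FPKM in fetal cells and 4.44 in adult, 4.28 times higher. Aurka was at 17.3 and 4.60, Aurkb at 19.7 and 8.38, and Cdc20, the activator of the anaphase-promoting complex, at 40.0 and 15.7. The exceptions were Plk2 (0.550 and 1.38 FPKM), a stress-induced Polo-like kinase, and the phosphatase Cdc14a (1.31 and 3.31).

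All 8 kinetochore and centromere promoters were higher in fetal cells, 3 of them past a log2 of 1. Cenpa, the histone H3 variant that marks the centromere, was at 26.6 FPKM in fetal and 10.3 in adult cells, Cdca8, the borealin subunit of the chromosomal passenger complex, at 25.4 and 10.7, and Spc24 of the Ndc80 complex at 24.4 and 9.96. The condensin subunits Ncaph (10.1 and 4.38 FPKM) and Ncapd2 (26.6 and 14.2) and 5 of 6 kinesins were higher as well. The kinesin exception, Kif1c (0.975 and 1.91 FPKM), is a motor of membrane transport. Among the 13 other names 10 were higher in fetal cells, from Cdc34, a ubiquitin-conjugating enzyme that acts at entry into replication (39.7 and 11.6 FPKM), to Cdc42 (60.9 and 59.7).

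A wider list of 104 cell cycle names outside the pattern gave 58 captured promoters of 51 genes. In the first batch 25 of 31 were higher in fetal cells, compared with 48.0% of all promoters, with 6 past a log2 of 1 (5.07%) and 0 past it towards adult cells (13.3%). Those 31 promoters belong to 24 genes. The 6 include Fen1 with Fen1_1 and Uhrf1 with Uhrf1_1, and promoters of the same gene are not separate evidence. In the second batch 26 of 27 were higher in fetal cells, compared with 45.9%, with 7 past a log2 of 1 (11.4%) and 1 towards adult cells (16.1%). Ube2c, the conjugating enzyme of the anaphase-promoting complex, was at 45.6 FPKM in fetal and 12.7 in adult cells, and Rbl2, a retinoblastoma relative of the DREAM repressor complex, was the adult one at 3.16 and 7.71. First-batch promoters of the list had 597 fetal and 572 adult calls, with more fetal calls at 15 (48.1% of all promoters) and more adult ones at 13 (42.1%). Second-batch ones had 454 and 395, with more fetal calls at 13 (50.1%) and more adult ones at 12 (38.1%).

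The number of contacts showed little relation to expression. A contact, a promoter paired with a distal bin of 2 kb, was called in a population when the authors' score was above 0, and scores started at 1.3 in first-batch and at 2.0 in second-batch calls, so totals are given per batch. First-batch members had 507 fetal and 493 adult calls, and second-batch members 821 and 768. More fetal than adult calls were found at 11 of 25 first-batch members, compared with 48.1% of all promoters, and at 25 of 49 in the second, compared with 50.1%. More adult calls were found at 11 of 25, compared with 42.1%, and at 14 of 49, compared with 38.1%. The remaining 3 and 10 promoters had equal numbers.

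Few members differed much in call number. A log2 ratio of calls, after adding 1 to each side, of at least 1 towards fetal cells was reached by 2 of 25 and 4 of 49 members, compared with 10.9% and 11.6% of all promoters. Towards adult cells 2 of 25 and 0 of 49 reached it, compared with 9.84% and 7.87%. Call numbers of the populations ranked alike over members, with Spearman's rho of 0.909 over 25 and 0.966 over 49 promoters, which share libraries. The log2 ratio of calls and the log2 difference of FPKM had a rho of -0.20 and 0.06, descriptions over promoters that are not replicates. Over all promoters these were 0.02 and 0.07.

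**Figure D2:**
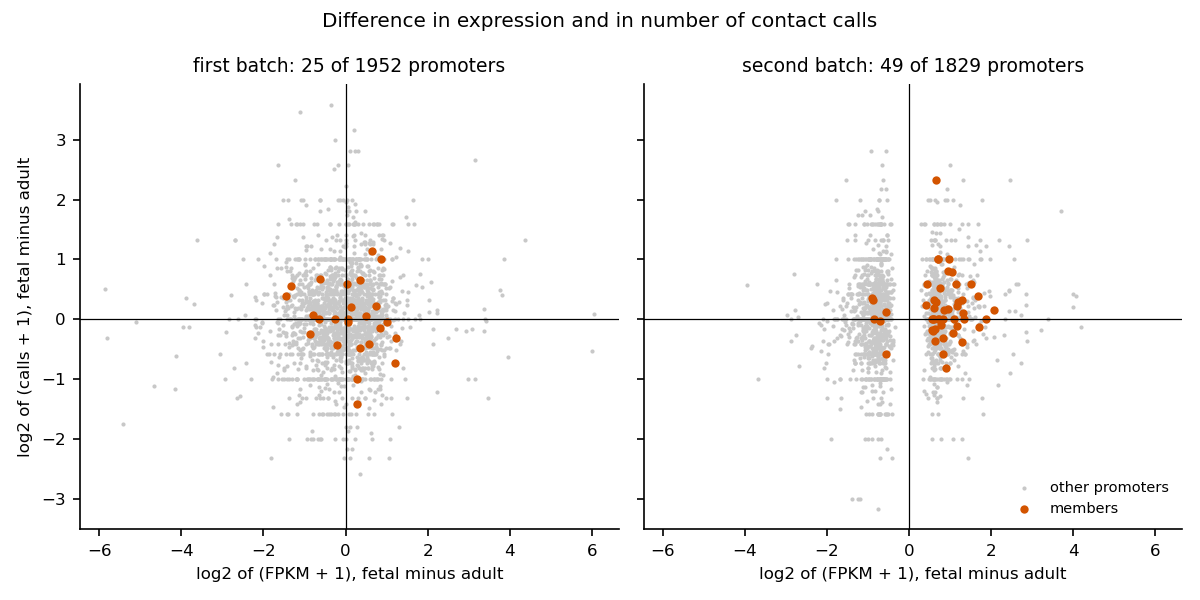
Log2 difference of FPKM + 1 (horizontal) against log2 ratio of calls + 1 (vertical), fetal minus adult, per promoter, members in orange and all others in grey, 1 panel per batch. Members of the second batch lie mostly to the right, 43 of 49 above 0 in expression, and spread on both sides of 0 in calls; the empty band around 0 there comes from the choice of differentially expressed promoters.

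Ccne1 shows how little the call number followed a large expression difference, with 9 fetal and 8 adult calls, of which 2 were at the same bin. Plk1 had 3 and 3 calls, Aurka 10 and 11, and Ccnb1 2 and 1. Cdkn2c, with the higher FPKM in adult cells, had more fetal calls, 24 and 16, and its promoter Cdkn2c_1 had 20 and 15. The largest fetal ratios among members with at least 10 calls in all were those of Rfc5 (10 and 4 calls), Rfc4 (7 and 3), Ncaph (25 and 14), Plk2 (23 and 14) and Cdkn1a_1 (37 and 23). The largest adult ratios were those of Nek6 (11 fetal and 17 adult calls), Kif1c (5 and 8), Cdkn1a (22 and 31), Cdk5rap3 (19 and 26) and Mcm7_1 (14 and 19).

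Call totals of the roles are given by batch. Among first-batch promoters, those of replication genes had 68 fetal and 69 adult calls, cyclins 130 and 118, kinases and inhibitors 107 and 94, and mitotic kinases and their group 50 and 40. Among second-batch promoters, replication genes had 100 fetal and 95 adult calls, cyclins 20 and 16, kinases and inhibitors 102 and 101, and mitotic kinases and their group 155 and 141. Of the same batch, 7 kinetochore promoters had 106 and 94 and the pair of condensins 103 and 84. The 6 kinesins, all of the second batch, had 128 fetal and 149 adult calls. More adult calls were found at 5 of them, compared with 38.1% of all promoters of the batch, and more fetal ones at 0, compared with 50.1%. The 5 include Kifc1 (40 and 47 calls) and Kifc5b (40 and 46), whose contact with each other is uncertain. The other names had 150 fetal and 168 adult calls over 7 first-batch promoters, and 80 and 65 over 6 second-batch ones. Kif22, a chromosome-arm motor, had 1 call in each. Spc25, a Ndc80 complex subunit, had 4 fetal calls and 0 adult calls, the strongest 175 kb away with 26 fetal counts (95% Poisson interval 17.0 to 38.1) and 6 adult counts (2.20 to 13.1).

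**Figure D3:**
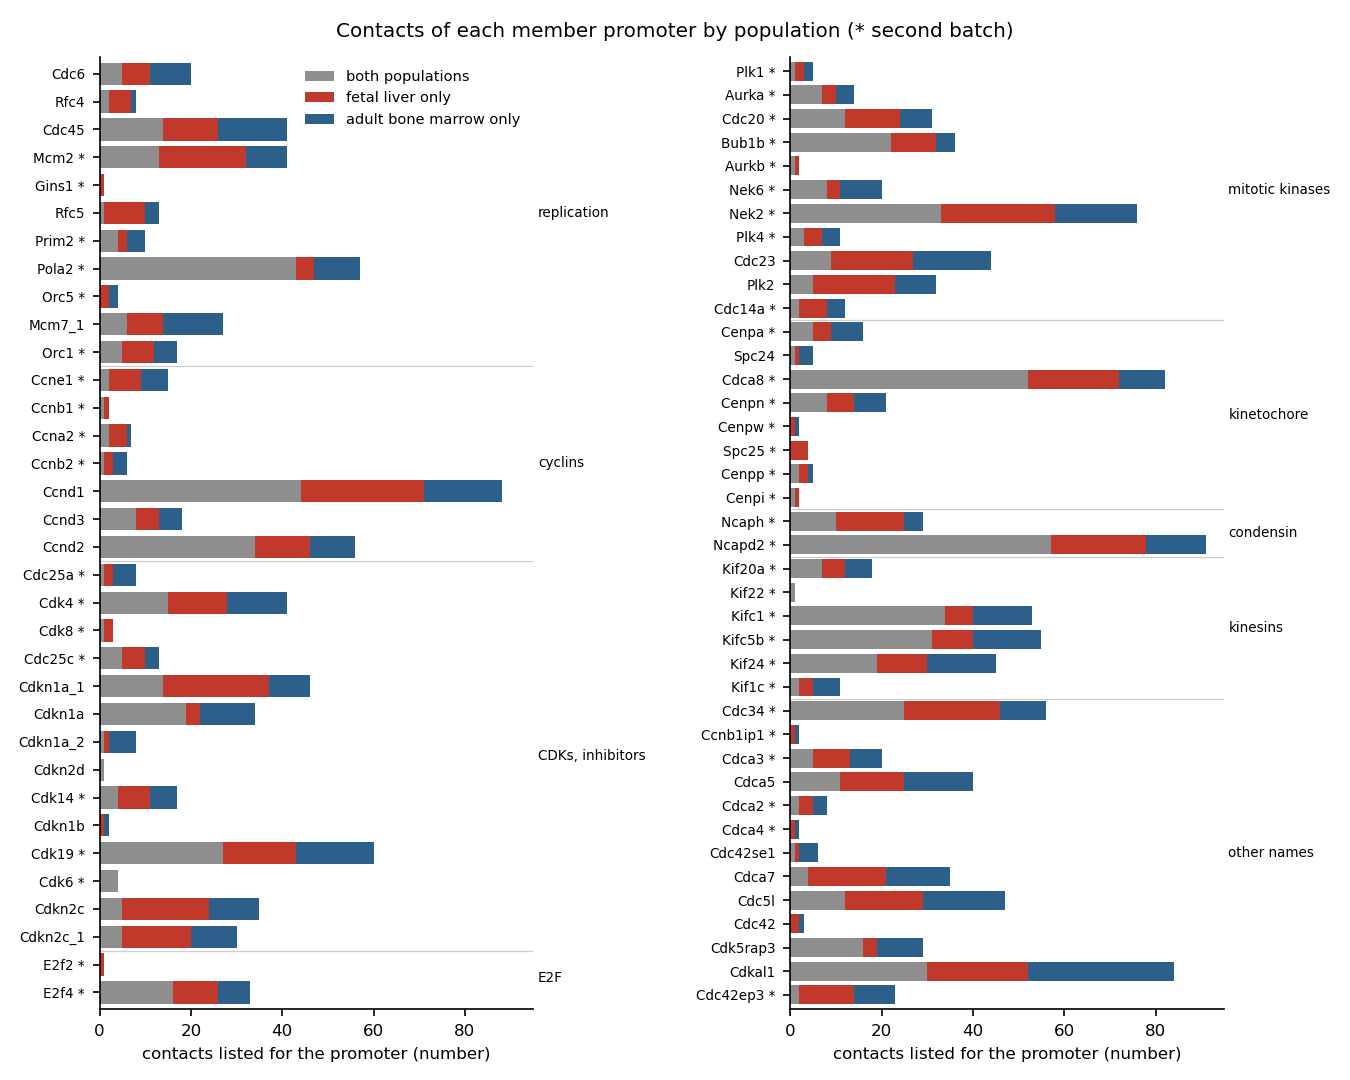
Contacts listed for each member promoter, stacked as called in both populations (grey), in fetal liver only (red) and in adult bone marrow only (blue), in the order of the expression plot; asterisks mark the second batch. Ncapd2, Cdca8, Ccnd1 and Cdkal1 have the most, and several promoters such as Ccnb1, E2f2 and Kif22 have 2 or fewer.

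Call numbers varied far more among members than between populations. Ncapd2 had 78 fetal and 70 adult calls, Cdca8 72 and 62, Ccnd1 71 and 61, and Cdkal1 52 and 62. At the other end E2f2 and Gins1 had 1 fetal call and 0 adult calls, and Cdkn1b, Cdca4, Cenpw and Ccnb1ip1 had 1 call in each, at different bins. The 5 promoters with most calls held 45.5% of the first-batch member calls and 36.4% of the second-batch ones, so shares over calls lean on them.

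Members' calls were shared between the populations more often than those of other promoters. In the first batch 48.9% of fetal calls (95% Clopper-Pearson interval 44.5 to 53.4, counting error only) were also adult calls, compared with 39.7% at other promoters. The share of adult calls was 50.3% (45.8 to 54.8), compared with 41.9%. Among second-batch calls it was 60.4% (57.0 to 63.8) of fetal and 64.6% (61.1 to 68.0) of adult ones, compared with 52.0% and 55.8%. Taken per promoter with at least 10 calls, which gives each promoter the same weight, the median share of calls that were shared was 40.7% over 19 first-batch members and 35.3% over all 1406 such promoters, and 55.8% over 31 and 50.0% over 1232 in the second batch. Neighbouring bins are called together, so these intervals are too narrow. First-batch members had a median of 37 calls in all per promoter, compared with 21 over all promoters, and second-batch members 18, compared with 19. Shared second-batch contacts of members had median counts of 44 fetal and 36 adult, compared with 37 and 32 at other promoters, and first-batch ones 16 and 14, compared with 15 and 14. The part of call number and counts in these shares was not tested.

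Second-batch members touched active promoters more often than other promoters did. Of their fetal calls 25.0% (22.0 to 28.1) lay at bins with the authors' active promoter mark in fetal cells, compared with 18.0% at other promoters, and of their adult calls 25.1% (22.1 to 28.4) at the adult mark, compared with 20.1%. Open chromatin took 64.7% (61.3 to 67.9) of fetal and 60.3% (56.7 to 63.8) of adult calls, compared with 56.4% and 57.1%, and the adult interval holds the share at other promoters. In the first batch 13.2% of fetal and 14.2% of adult calls lay at active promoters, compared with 15.6% and 18.4%. Without the 5 member promoters with most calls the members' shares were 19.5% and 19.8%, so they depend on those promoters. The other promoters with most calls were not left out in the same way, so the shares without the 5 have no like value beside them. First-batch open bins took 55.2% of fetal and 55.4% of adult calls, compared with 53.0% and 54.6%, and 61.0% and 62.3% without the 5. Active enhancer bins took 12.8% and 16.0% of first-batch and 13.8% and 13.0% of second-batch calls, and for other promoters 12.7%, 13.0%, 12.8% and 13.7%.

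**Figure D4:**
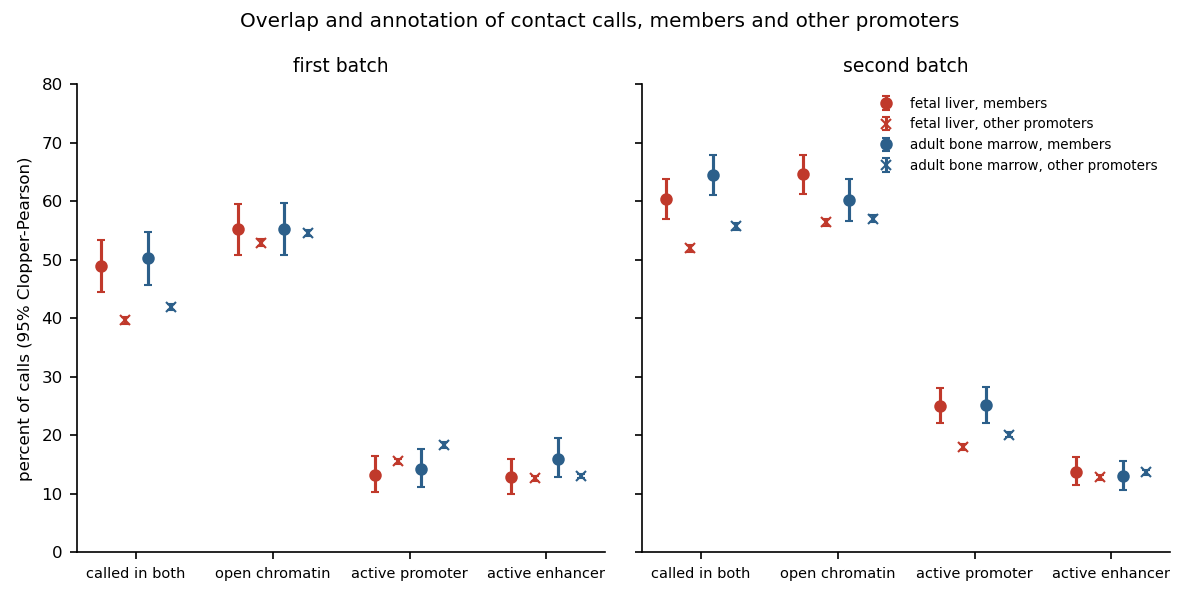
Percent of fetal (red) and adult (blue) calls that were called in both populations or lay at bins with the marks named, for members (circles) and other promoters (crosses), with 95% Clopper-Pearson intervals, per batch. The members' shared calls lie above those of other promoters in both batches, and their active promoter share lies above in the second. In the first it lies below, and above once the 5 member promoters with most calls are left out while all other promoters are kept.

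Fetal contacts had the longer median distance in both batches, at members and at other promoters, and the intervals of the members' first-batch medians overlapped. First-batch members had median distances of 177 kb (95% interval 166 to 188) for fetal and 164 kb (152 to 176) for adult calls, a difference of 13.3 kb. Second-batch members had 100.0 kb (93.0 to 105) and 82.1 kb (77.3 to 86.7), a difference of 17.9 kb. Shared calls enter both medians, and no interval of the difference is given. Other promoters had medians of 178 and 153 kb, and 102 and 77.6 kb. The fetal median was longer at 11 of 17 first-batch members with at least 5 calls in each population, compared with 67.1% of 1288 promoters, and at 27 of 31 in the second, compared with 84.4% of 1142. At 20 to 60 kb, 25 of 30 population-specific contacts were adult-specific in the first batch (83.3%, 65.3 to 94.4) and 118 of 142 in the second (83.1%), compared with 69.3% and 84.4% at other promoters.

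The D-type cyclins differed in their contacts. Ccnd3 had 13 fetal and 13 adult calls at median distances of 101 and 103 kb and 6 contacts at active enhancer bins, whereas Ccnd1 and Ccnd2 had more of both. All contacts of Ccnd1, captured at chr7:152124458-152125810 (mm9), lay to the side of higher coordinates, from 75.9 to 386 kb away. The bins near 174 and 304 kb are described here, but contacts were also listed between them, such as at 256 kb, and no clustering was run. Near 174 kb the strongest bin scored 37.7 in fetal and 14.9 in adult cells, with 63 counts (48.4 to 80.6) and 33 (22.7 to 46.3), and carried the active enhancer mark in both. Near 304 kb the strongest bin scored 12.3 and 39.3, with 30 counts (20.2 to 42.8) and 58 (44.0 to 75.0), and carried it in neither. The fetal signal was thus higher at the nearer bin and the adult signal at the farther one, in 2 bins picked for their scores. Of its 17 contacts at active enhancer bins, 6 lay at bins active in fetal cells alone, of which 4 were fetal-specific and 2 shared.

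Ccnd2 (chr6:127100528-127101093, mm9) had 46 fetal and 44 adult calls, 34 at the same bins, although its FPKM was higher in adult cells. It touched 14 active enhancer bins, 10 of them active in both populations, between 90.2 and 322 kb away. Cdk19 (chr10:40068670-40069452) led the members with 29 contacts at active enhancer bins, 19 active in both populations, 5 with the mark from fetal cells alone and 5 with it from adult cells alone. Its strongest adult contact, 48.1 kb away, scored 17.5 in fetal and 52.4 in adult cells, with 113 counts (93.1 to 136) and 137 (115 to 162), and had no enhancer mark.

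Mcm2 (chr6:88848623-88849514) had mostly fetal enhancer contacts. Of its 11 contacts at active enhancer bins, 9 lay at bins active in fetal cells alone, 2 at bins active in both, and 0 at bins active in adult cells alone. Among the 9, 4 were fetal-specific, 5 were shared and 0 were adult-specific, and they lay near 378, 88, 72 and 66 kb on one side and 144 kb on the other. Its strongest contact, 56.1 kb away, was in both populations, with scores of 26.1 and 30.9. A fetal-specific contact reached a bin at the Gata2 promoter 700 kb away, with a score of 4.68, 32 counts (21.9 to 45.2) in fetal and 13 (6.92 to 22.2) in adult cells. It was not called from Gata2, a stem cell transcription factor gene captured in the other batch, whose FPKM was 21.9 in fetal and 57.3 in adult cells.

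**Figure D5:**
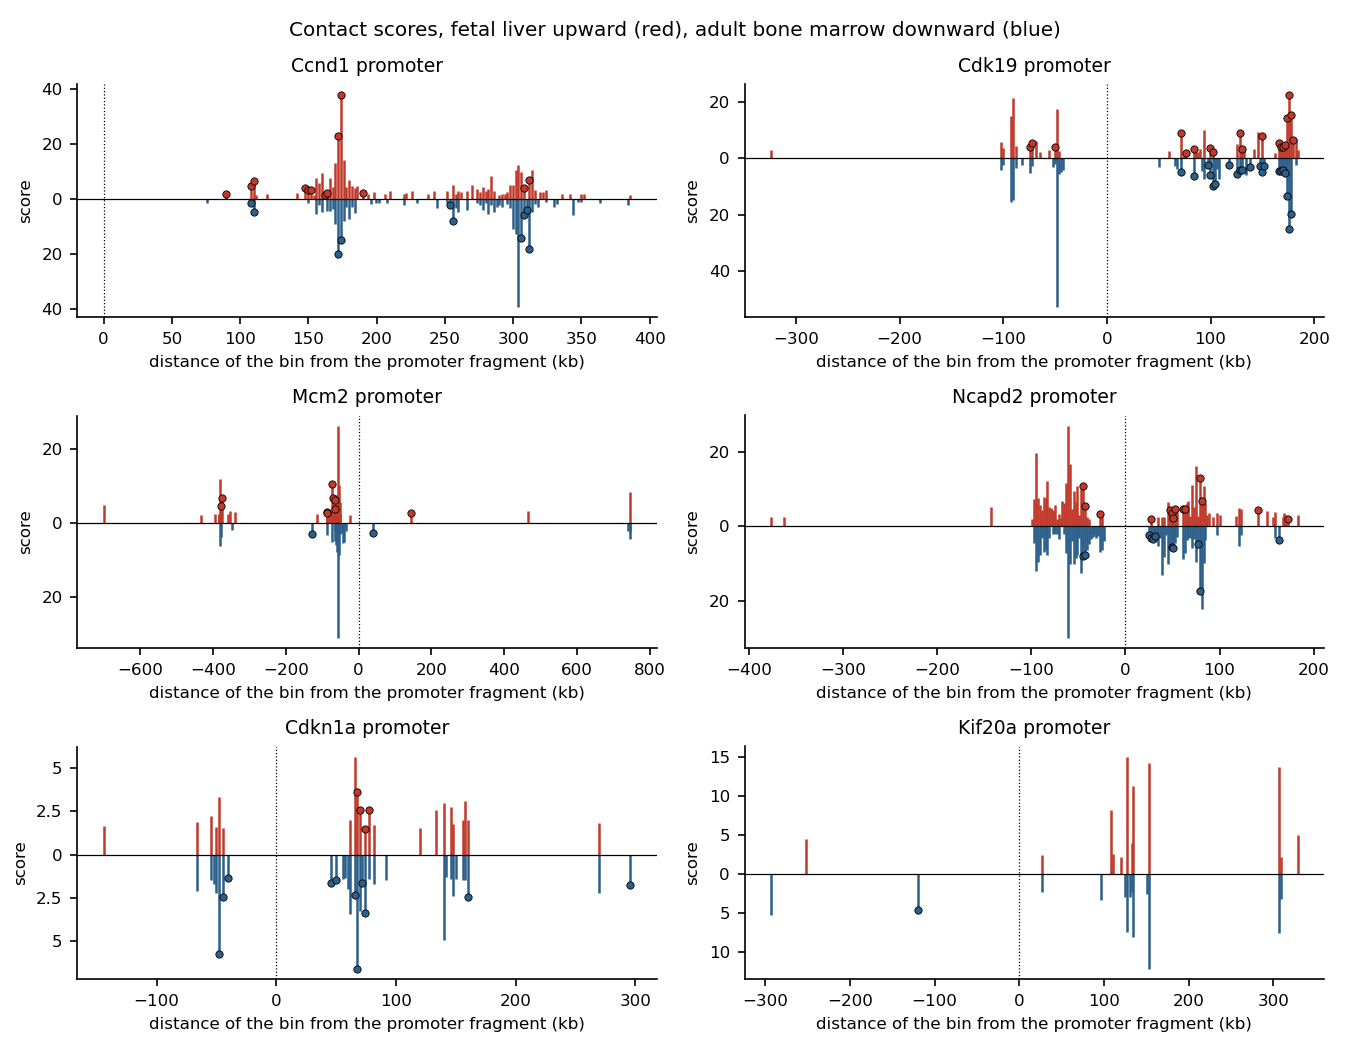
Score of every called contact within 800 kb against the distance of its bin from the promoter fragment, fetal liver upward in red and adult bone marrow downward in blue, for 6 member promoters; dots mark bins with the active enhancer mark in the population shown, and score axes differ between panels. Ccnd1 shows high scores near 174 and 304 kb, and the enhancer dots of Mcm2 are mostly fetal.

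Over all members, contacts at stage-specific enhancers were split among all 3 classes of call. At bins with the active enhancer mark in fetal cells alone, first-batch members had 32 listed contacts, 10 fetal-specific, 6 adult-specific and 16 shared, and second-batch members 54, with 15, 11 and 28. Fetal-specific ones made up 62.5% (35.4 to 84.8) and 57.7% (36.9 to 76.6) of the specific contacts there, compared with 54.8% and 59.6% at other promoters. At bins with the mark in adult cells alone, first-batch members had 45, of which 13 were fetal-specific, 17 adult-specific and 15 shared, and second-batch members 27, with 7, 10 and 10. Fetal-specific ones were 43.3% (25.5 to 62.6) and 41.2% (18.4 to 67.1) of the specific contacts, compared with 43.4% and 40.1%, so every interval holds the share at other promoters. The marks and the contacts come from pooled values, and 21 of the 74 member promoters, over both batches, had no contact at an active enhancer bin of either population. The share of all promoters without such a contact is not given, so this count says nothing particular to members. Members such as E2f2 had only 1 call in all, and the part of call number in the count was not tested. Mcm7_1 had 4 of its 7 enhancer contacts at bins active in adult cells alone, 3 of them adult-specific, although its FPKM was higher in fetal cells. Cdkn2c, the adult-biased inhibitor, had 2 fetal-specific contacts near 317 and 319 kb at bins whose enhancer mark was adult.

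Alternative promoters of 1 gene gave different call numbers over shared ground. The fragment Cdkn1a lies 7.77 kb from Cdkn1a_1 and 4.52 kb from Cdkn1a_2. Cdkn1a had 22 fetal and 31 adult calls, Cdkn1a_1 37 and 23, and Cdkn1a_2 2 and 7, so that the direction turned between fragments of the same gene. The fragments are 1169, 2659 and 146 bp long. Cdkn2c and Cdkn2c_1 gave the same direction, with 24 and 16, and 20 and 15 calls.

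Members also touched one another. There were 12 listed contacts between promoters of different member genes, involving 9 members at 4 places. They include the uncertain contact of Kifc1 with Kifc5b, and others join neighbouring genes. No such count for other sets of promoters is given, so whether members met more often than other genes was not tested. Kif20a, a kinesin of cytokinesis, Cdc23, an anaphase-promoting complex subunit, and Cdc25c lie side by side, with 27.0 kb from Kif20a to Cdc23 and 99.9 kb from there to Cdc25c. Kif20a to Cdc25c scored 14.95 in fetal and 7.44 in adult cells, with 61 counts (46.7 to 78.4) and 38 (26.9 to 52.2), and was called in both populations from the Cdc25c end too, with 65 and 42 counts. That bin at Kif20a also holds a captured fragment of Brd8. Cdc23 reached Cdc25c in both populations, at scores of 1.43 and 3.75, and Cdc25c reached Cdc23 at 7.31 and 4.86. All 3 genes had the higher FPKM in fetal cells.

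Cdca3, a trigger of mitotic entry, and the condensin gene Ncapd2 lie 362 kb apart on chromosome 6. Cdca3 reached Ncapd2 in fetal cells alone, with a score of 10.92 and 70 counts (54.6 to 88.4), compared with 25 counts (16.2 to 36.9) and no call in adult cells. From the other end, Ncapd2 reached Cdca3 in fetal cells alone with a score of 2.52 and 45 counts (32.8 to 60.2), compared with 30 (20.2 to 42.8). Its bin at Cdca3 also holds a captured fragment of Usp5. Both genes had the higher FPKM in fetal cells, Cdca3 at 21.0 and 7.91. Counts at shared member contacts were themselves higher in fetal cells in this batch, by a median log2 ratio of 0.26, and its part in this difference was not tested.

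Cdca5, sororin, which protects cohesin, and Pola2, a subunit of DNA polymerase alpha, lie 121 kb apart on chromosome 19 and were captured in different batches. Cdca5 reached Pola2 in fetal cells with a score of 3.60 and was not called in adult cells, and Pola2 reached Cdca5 in both, at 2.96 and 4.67. They had 16 listed bins in common, out of 32 bins listed for more than 1 member gene. Pola2 reached a bin 52.7 kb away in both populations at 37.9 and 39.5, and 43 of its 47 fetal calls were also adult calls. Kifc1 and Kifc5b, similar kinesin genes 6973 kb apart on chromosome 17, were linked by infinite scores in both populations. How reads that fit both copies were assigned is not given in the sources used here, so this contact is uncertain.

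Across the members, 117 listed contacts from 44 promoters ended at a captured promoter of another gene, 95 of the 104 partners being outside the list. In the second batch these were 8.65% (6.82 to 10.8) of fetal and 8.07% (6.25 to 10.2) of adult calls, compared with 7.44% and 7.93% at other promoters. In the first batch they were 4.34% (2.74 to 6.50) and 4.87% (3.14 to 7.16), compared with 5.29% and 6.66%. Cdk4 reached Mars, the methionyl-tRNA synthetase gene, 249 kb away in fetal cells alone, with a score of 12.61 and 60 counts (45.8 to 77.2), compared with 22 (13.8 to 33.3), and was called from the Mars end in fetal cells alone as well. Cdc23 reached Egr1, a transcription factor linked to HSC quiescence, in both populations at scores of 3.28 and 5.28, and was called from the Egr1 end in adult cells alone. Cdc25c reached the same bin in fetal cells alone, at a score of 2.15, and was not called from Egr1. Egr1 FPKM was 0.702 in fetal and 25.3 in adult cells.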

How the data were processed

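Reads were handled with Trim Galore 0.41 and Bowtie2 2.2.2 on mm9, per the submitters' processing notes, which give no role or order; the handling of duplicates and of reads with several matches is not given in the sources used here. The authors deposited, per contact and population, a score (0 where not called) and a whole-number count, pooled over the libraries of a population and batch; whether a count is a sum is not stated. They also deposited FPKM per promoter and 0 or 1 bin marks for promoters, enhancers and open chromatin. Per-sample depth is therefore unknown. A contact was called above a score of 0. Distances ran between fragment and bin middles on the same chromosome. Shares have Clopper-Pearson 95% intervals, medians exact order-statistic intervals and counts exact Poisson intervals, all for counting error only. The scripts, in Python 3.11.15 with pandas 2.3.3 and SciPy 1.17.1, were tested on simulated data.

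Members and lists were chosen with earlier results of these data known. Members named with values are the 5 with the largest call ratio each way (at least 10 calls), the 3 with most calls per population, the 5 with the largest expression difference each way, genes with several promoters, members that reach another member, those with most enhancer contacts, and a list of well-known cell cycle genes. Other members and partners named were chosen after their values were seen. Alternatives comprised a score 1 unit higher, merged or tolerant bins, 1 promoter per gene, another pseudocount (0.1 in place of 1), contacts beyond 20 kb and leaving out the other names.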

Additional observations from a re-analysis of the deposited data

How the results depend on the processing

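Of 154 alternative values over 28 results, 135 stayed within the limits of the value reported and 19 moved. The limits were the 95% interval of the reported value itself, or a fixed ratio to it for counts of members by FPKM. The alternatives reuse many of the same calls or the same FPKM, so staying within these limits is a weak check. A turn of direction was looked for only in the call direction and the distance difference, and 0 were found. The first-batch call direction, with 11 of 25 members each way, could not turn under that rule. Shares were not checked for a turn against other promoters. The first-batch active promoter share did pass from below theirs to above when promoters were left out among members alone, as given above. No paired analysis was possible because the deposited columns are pooled per population and carry no replicate numbers, and for the same reason no library could be left out. With bins within 5 kb counted as the same, shared fetal calls rose to 71.2% and 78.9% in the first and second batch and shared adult calls to 72.6% and 85.3%. At a score 1 unit higher, first-batch calls lay at open chromatin in 60.3% (fetal) and 64.0% (adult), and second-batch adult calls in 67.4%, with 29.2% of these at active promoters. The 3 alternatives of leaving out Kifc1 and Kifc5b, the 5 promoters with most calls, or contacts of at least 1000 counts were added after seeing the data. Without the 5 promoters with most calls, first-batch fetal and adult calls lay at active promoters in 19.5% and 19.8% and at open bins in 61.0% and 62.3%, with 9.19% of fetal calls at active enhancers; in the second batch open bins took 63.9% and active enhancers 15.7% of adult calls. Without the other names, first-batch active promoters took 11.1% of adult calls. Members past a log2 of 1 towards adult FPKM numbered 4 and 1 in the respective batches with a pseudocount of 0.1, and 1 in the first with 1 promoter per gene. Low counts per contact limit what a missing call shows: a contact specific to 1 population often had counts in the other.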

Other observations

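A few contacts of members held a large part of their counts. The 6 contacts with at least 1000 counts took 44.9% of the 101913 fetal and 46.1% of the 88608 adult counts over all member contacts, and all were called in both populations. The largest joined Ncapd2 to a bin on chromosome 2, with 18855 fetal and 18176 adult counts. Kifc5b to Kifc1 had 13357 and 10804, Cdc34 to a bin on chromosome 11 had 5650 and 5467, and Cdkn2d, in its 1 listed contact, met a bin 102.7 Mb away with 5631 and 4404. Kifc1 to Kifc5b and Ccnb1 to a bin on chromosome 7 made up the rest. None of these bins was looked at for similar sequence, since no mm9 genome was used here.

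Contacts between chromosomes numbered 26 at 18 member promoters, of which 17 were in both lists, 7 in the fetal list alone and 2 in the adult list alone. In the first batch they were 1.18% of the members' fetal and 0.609% of their adult calls, compared with 1.84% and 1.45% at other promoters. In the second batch they were 2.19% and 2.08%, compared with 1.28% and 1.22%, so the batches differed in direction. All 4 contacts of Cdk6 were of this kind and called in both, with up to 233 fetal and 268 adult counts at a bin on chromosome 13. Plk1 met a bin on chromosome 5 with 269 fetal and 283 adult counts.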
